A study of Canis lupus familiaris with 60 samples.

Results

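FCGR2B and FCGR3A are receptors for the Fc part of IgG. On the canine array their names are carried by 5 probes, one for each of 5 of the 54633 array identifiers: ENSCAFT00000020677, ENSCAFT00000020678 and ENSCAFT00000038665 for FCGR2B, ENSCAFT00000020665 for FCGR3A, and TC50899. The members are the probes to which the study's list of genes for the 24 hr comparison gives the symbol FCGR2B or FCGR3A. That list was made on the difference between dog groups in the allergen effect at 24 hr, so this difference and its parts are given below as values without a test.

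FCGR3A (CD16a) is an activating receptor. It signals through the gamma chain FCER1G and is carried by monocytes, macrophages and natural killer cells. FCGR2B (CD32B) is the inhibitory member of the family. It is found on B cells, macrophages, mast cells and dendritic cells and dampens signals from activating receptors that bind the same immune complex. In allergic skin, antibodies of the IgE class act through another receptor, whose alpha and beta chains are FCER1A and MS4A2, and this receptor shares the gamma chain with FCGR3A.

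The samples were skin biopsies of 8 mm from the chest of Beagle dogs aged 2 to 3 years, kept under the same conditions. They came from 6 sensitized dogs (4 males and 2 females), which had a positive skin test for, and raised IgE against, the house dust mite Dermatophagoides farinae, and from 6 nonsensitized dogs (2 males and 4 females). Each dog is a separate animal and each array 1 biopsy. The chest of every dog was clipped 4 days before the patches. Untreated skin, which was clipped but had no patch, was taken at 0 hr. Skin under a patch with 75 mg of mite paste (allergen) and under a patch with 50 µl of saline was taken at 6 hr and at 24 hr, so that dog group, patch and time formed 10 groups of 6 arrays. The 24 hr allergen array of sensitized dog 2839 (specimen 14) was left out, as that RNA had a low integrity in the quality check of the biopsies. That group therefore held 5 arrays in the fit of 59.

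The arrays were 1-colour and each carried 61657 spots that were not controls. The median processed signal of an array ranged from 84.8 to 125.76 at 0 hr, from 81.7 to 133.43 at 6 hr and from 70.97 to 146.12 at 24 hr. Between 67.65% and 80.15% of the spots of an array were well above background. Both lowest values, 70.97 and 67.65%, belong to the left-out array of dog 2839. In the fit the lowest were 104.27 at 24 hr and 68.85%. Levels below are normalized signals on a log2 scale, where a difference of 1 is a doubling, and they are compared only within a probe. A probe was called different at an adjusted p below 0.05 (limma, Benjamini-Hochberg over 45972 probes) together with a change of at least 1.5-fold. The slides were not balanced over time: the 0 hr arrays lay on slides 6 to 8 and all but 1 of the 24 hr arrays in the fit lay on slides 1 to 3, so time and slide cannot be told apart. Dog groups were not balanced over slides either. The 24 hr allergen arrays on slide 1 were all of nonsensitized dogs, so dog group and slide are partly mixed there. In whole biopsies, more cells of a type and more RNA per cell cannot be told apart either.

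The names were checked against the annotation before use. TC50899 bears the human symbol FCGR2B in the study's annotation, while its own description there is CD16, the protein encoded by FCGR3A, so its 2 names conflict. They do not stand equally: the human symbol rests on a sequence match of lower identity than those of the other 4 probes, a second description there likens TC50899 to the FCGR3A protein, and its listed position is close to that of the FCGR3A transcript. TC50899 is therefore kept apart below and is not counted for either gene. The FCGR2B probes have no dog symbol in that annotation and bear a human one from a sequence match. Whether the probes tell such closely related genes apart was not tested. In the newer dog annotation of RefSeq (UU_Cfam_GSD_1.0), FCGR2B lies next to FCRLA, and the gene called FCGR3A here lies close by under a symbol of the LOC kind. Their positions in the build of the array are not given here.

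The 3 FCGR2B probes and TC50899 were well above background on every array of every group. The FCGR3A probe was dim. It was well above background on 0 of 12 arrays at 0 hr, on 0 of 12 at the 6 hr allergen sites, on 1 of 6 in each dog group at the 6 hr saline sites, and at 24 hr on 5 of 5 sensitized and 2 of 6 nonsensitized allergen sites and on 5 of 6 and 4 of 6 saline sites. It passed the filter on dim probes only through the 24 hr groups of sensitized dogs, where it is high. In the groups with no array well above background, its values do not measure the level and set no upper bound on it. Its levels and counts of arrays are therefore described without a test, and no measured size of a difference is given for it.

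**Figure D1:**
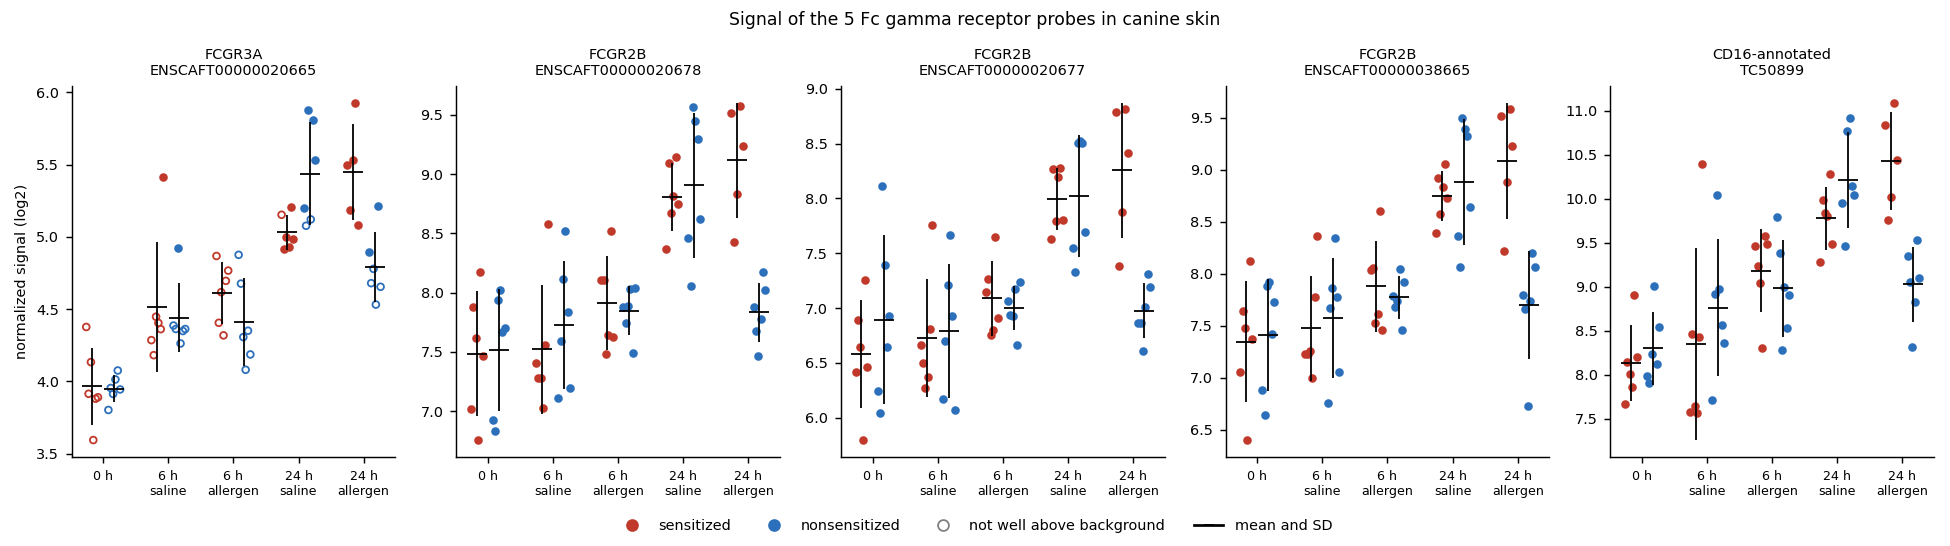
Normalized signal (log2, each panel with its own axis) of the 5 Fc gamma receptor probes in untreated skin and at saline and allergen sites, 1 point per array, with mean and SD, for sensitized and nonsensitized dogs. Open points are arrays on which the probe was not well above background. 3 groups stand high for each FCGR2B probe and for TC50899: both 24 hr saline groups and the 24 hr allergen sites of sensitized dogs.

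In untreated skin, FCGR2B and TC50899 gave clear signals in both dog groups, and the groups overlapped. ENSCAFT00000020678, which stands for FCGR2B below, ranged from 6.76 to 8.17 in sensitized dogs (median 7.54) and from 6.83 to 8.03 in nonsensitized dogs (median 7.69). TC50899 ranged from 7.66 to 8.91 (median 8.08) and from 7.90 to 9.00 (median 8.18). None of the FCGR2B probes or TC50899 passed the test between dog groups at 0 hr. The difference of sensitized minus nonsensitized was -0.03 (SE 0.26) for this FCGR2B probe and -0.17 (SE 0.34) for TC50899, each with a limma adjusted p of 1. It was -0.32 and -0.07 for ENSCAFT00000020677 and ENSCAFT00000038665. Of all 45972 probes, 0.00218% were called in this comparison. For FCGR3A no array of either group was well above background (means 3.97 and 3.95), and no fold is given.

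At 6 hr, the allergen sites of sensitized dogs had higher FCGR2B and TC50899 values than their saline sites in 5 of 6 dogs, without passing the test. FCGR2B (ENSCAFT00000020678) ranged from 7.49 to 8.52 at the allergen sites (median 7.88) and from 7.03 to 8.58 at the saline sites (median 7.34). TC50899 ranged from 8.30 to 9.57 (median 9.35) and from 7.57 to 10.40 (median 8.04). Most allergen sites were above most saline sites, but 1 saline array, that of dog 2855, was above all allergen arrays for both. The difference was 0.39 (SE 0.26) for FCGR2B, with a limma adjusted p of 0.73, and 0.84 (SE 0.34) for TC50899, with an unadjusted p of 0.016 and an adjusted p of 0.35. The other FCGR2B probes gave 0.36 and 0.41. None of these 4 probes was called, against 0.418% of all probes.

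The high 6 hr saline array of dog 2855 touched every one of these values. Its FCGR2B value was 8.58 and its TC50899 value 10.40, and it was the only sensitized 6 hr saline array on which FCGR3A was well above background, at 5.41. Without dog 2855 the difference was 0.66 for FCGR2B (limma adjusted p 0.75) and 1.19 for TC50899 (unadjusted p 0.00062, adjusted p 0.19). On the same array the mean level of 5 monocyte and macrophage markers was 8.34, against 7.57 to 7.86 on the other 5 arrays of its group, and that of 5 neutrophil markers was 8.45, against 7.22 to 7.59. Of these markers, 4 of 5 and 3 of 5 were above all other arrays of the group. Mast cell markers (9.50, against 8.54 to 9.37), dendritic cell markers (7.05, against 6.64 to 6.86), 4 other Fc receptor genes (9.04, against 7.74 to 8.58) and, by a small margin, keratinocyte markers (13.77, against 13.39 to 13.76) were also above the other 5 arrays. So were 7 genes of activating signalling (9.67, against 8.91 to 9.4). On the same array 3 fibroblast markers (17.08, against 16.58 to 17.36) and the T cell markers (5.91, against 5.82 to 6.05) were within the range of the others. The natural killer cell markers (5.1, against 4.97 to 5.34) and endothelial markers (10.76, against 10.59 to 10.91) were too. The part of these markers in the FCGR values was not tested.

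In nonsensitized dogs at 6 hr, allergen and saline sites overlapped for every member. FCGR2B ranged from 7.49 to 8.04 at allergen sites (median 7.89) and from 7.11 to 8.52 at saline sites (median 7.72), and it was higher at the allergen site in 3 of 6 dogs. TC50899 was higher there in 4 of 6 dogs. The differences were 0.12 (SE 0.26) and 0.22 (SE 0.34), with limma adjusted p values of 0.99 and 0.98. No member was called, against 0.0348% of all probes. The direction of this small difference was not stable: with slide as a block it was -0.24 for FCGR2B and -0.16 for TC50899.

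The allergen effect at 6 hr was then compared between the dog groups. The difference of the differences was 0.28 (SE 0.36) for FCGR2B and 0.61 (SE 0.47) for TC50899, each with a limma adjusted p of 1. With each dog left out in turn it ranged from 0.155 (without dog 2802) to 0.546 (without dog 2855) for FCGR2B, and from 0.217 (without dog 2800) to 0.985 (without dog 2704) for TC50899. The 2 other FCGR2B probes gave 0.15 and 0.21. None of these probes passed the test, and the share of all probes called was 0%, with 522 of 45972 at an unadjusted p below 0.05. For FCGR3A no value is given, since only 2 of the 24 arrays at 6 hr were well above background.

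Neither FCGR2B nor TC50899 passed the test between the 6 hr saline sites and untreated skin. Against untreated skin of all dogs, FCGR2B differed by 0.13 (SE 0.18, limma adjusted p 0.63) and TC50899 by 0.34 (SE 0.24, adjusted p 0.29). For FCGR3A no difference is given, since 2 of 12 saline arrays and 0 of 12 untreated arrays passed the background test. Of all probes, 2.65% were called in this comparison and 0.261% were called higher.

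**Figure D2:**
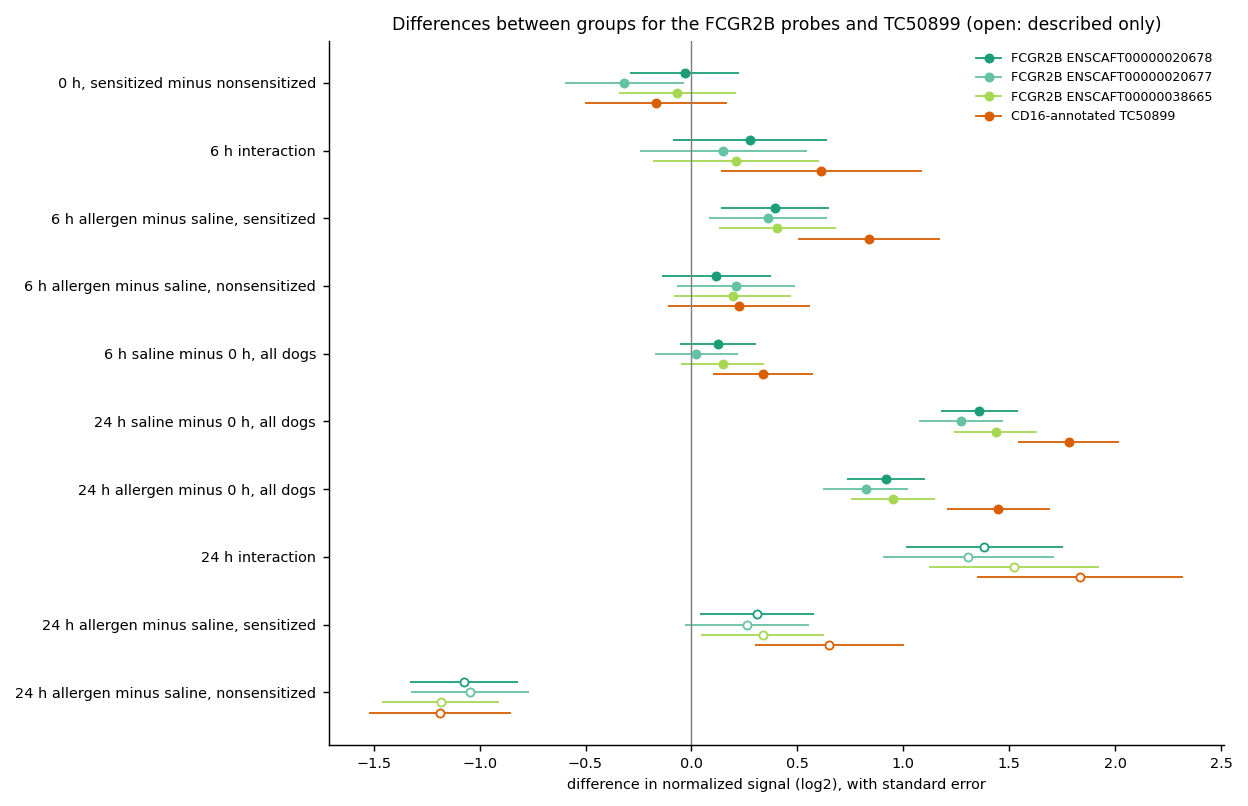
Fitted difference in normalized signal (log2, with standard error) of the 3 FCGR2B probes and TC50899 in the 10 comparisons. Filled points were tested. Open points belong to the comparison that chose the probes and are described only. The 24 hr saline sites lie 1.27 to 1.78 above untreated skin, while at 6 hr the largest difference between allergen and saline is 0.84.

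By 24 hr, the FCGR2B probes and TC50899 were higher at the saline sites than in untreated skin, in sensitized and nonsensitized dogs alike. FCGR2B (ENSCAFT00000020678) ranged from 8.37 to 9.15 in sensitized dogs (median 8.78) and from 8.06 to 9.56 in nonsensitized dogs (median 8.96). TC50899 ranged from 9.28 to 10.28 (median 9.82) and from 9.46 to 10.92 (median 10.09). For TC50899 the 12 saline arrays were above the 12 arrays of untreated skin, and for FCGR2B 11 of 12 were. This was 11 of 12 for ENSCAFT00000038665 but 6 of 12 for ENSCAFT00000020677, whose untreated arrays spread more widely. Within dogs, each of the FCGR2B probes and TC50899 was higher in 12 of 12 dogs.

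The rise from 0 hr to the 24 hr saline site was 1.36 (SE 0.18, 2.57-fold, limma adjusted p 1.2e-08) for FCGR2B and 1.78 (SE 0.24, 3.43-fold, adjusted p 1.1e-08) for TC50899. The other FCGR2B probes rose by 1.27 and 1.44. For FCGR3A, 9 of 12 saline arrays and 0 of 12 untreated arrays were well above background, and no fold is given. The 3 FCGR2B probes and TC50899 were called higher, against 6.85% of all probes. With slide as a block none of them was called (FCGR2B 0.53, SE 0.53, limma adjusted p 0.62; TC50899 0.95, SE 0.71, adjusted p 0.47), a fit in which 1 array, the 24 hr allergen array of dog 2840 on slide 8, joins the 24 hr arrays to the others. With slide as a random block the 4 probes were called.

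At the 24 hr allergen sites, the mean over the 11 arrays was also higher than in untreated skin, but the dog groups contributed unequally. The difference was 0.92 for FCGR2B (SE 0.19, limma adjusted p 3.7e-05) and 1.45 for TC50899 (SE 0.24, adjusted p 1.6e-06). In sensitized dogs FCGR2B was higher than at 0 hr in 5 of 5 dogs, by 1.71 on average (SD 0.65), and in nonsensitized dogs in 4 of 6, by 0.32 (SD 0.58). For ENSCAFT00000020677 the means were 1.74 and 0.08, and for TC50899 2.30 (5 of 5 dogs) and 0.73 (5 of 6 dogs). Of the 11 allergen arrays, 6 lay above the 12 untreated arrays for FCGR2B and 9 for TC50899. The 3 FCGR2B probes and TC50899 were called higher, against 5.71% of all probes, but with slide as a block none was called. In that fit the difference was 0.15 (SE 0.50) for FCGR2B and 0.69 (SE 0.66) for TC50899, and it turned to -0.14 for ENSCAFT00000020677 and -0.038 for ENSCAFT00000038665. For FCGR3A, 7 of the 11 allergen arrays passed the scanner's background test. On slide 8 itself, the allergen array of dog 2840 (FCGR2B 8.42, TC50899 9.76, FCGR3A 5.19) was above the 4 untreated arrays of that slide (6.76 to 8.17, 7.86 to 8.91 and 3.60 to 4.13).

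The dog groups stood apart at the 24 hr allergen sites, and the values are given here as a description because the probes were listed for this pattern. In sensitized dogs the FCGR2B values at the allergen sites were 9.51, 8.42, 8.83, 9.58 and 9.24, and in nonsensitized dogs they ranged from 7.47 to 8.17 (median 7.83). The sensitized arrays were all above the nonsensitized ones. TC50899 gave 10.84, 9.76, 10.01, 11.09 and 10.44 in sensitized dogs and ranged from 8.31 to 9.53 (median 9.07) in nonsensitized dogs, again without overlap. The share of all probes that part in this way was not counted. The FCGR3A values were 5.50, 5.19, 5.53, 5.93 and 5.09 in sensitized dogs and ranged from 4.53 to 5.22 (median 4.73) in nonsensitized dogs, where 4 of 6 arrays were not well above background.

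Set against the saline site, the larger shift was in nonsensitized dogs. FCGR2B was lower at the allergen site in 6 of 6 nonsensitized dogs and higher in 4 of 5 sensitized dogs, with mean differences of -1.07 (SD 0.69) and 0.37 (SD 0.53) within dogs. ENSCAFT00000020677 was lower in 6 of 6 and higher in 3 of 5. The fitted FCGR2B difference in sensitized dogs was 0.31, and it ranged from 0.12 (without dog 2838) to 0.46 (without dog 2840) with each dog left out. TC50899 was lower in 6 of 6 and higher in 4 of 5, with -1.19 (SD 0.87) and 0.69 (SD 0.64). FCGR3A was lower in 6 of 6 and higher in 5 of 5. However, 4 of 6 allergen and 2 of 6 saline arrays of the nonsensitized dogs were not well above background. The fitted difference between dog groups in the allergen effect was 1.38 for FCGR2B, 1.31 and 1.52 for the other FCGR2B probes and 1.84 for TC50899. The FCGR2B mean at the nonsensitized allergen sites, 7.83, stood beside 7.52 in untreated skin of the same dogs and 8.91 at their saline sites.

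**Figure D3:**
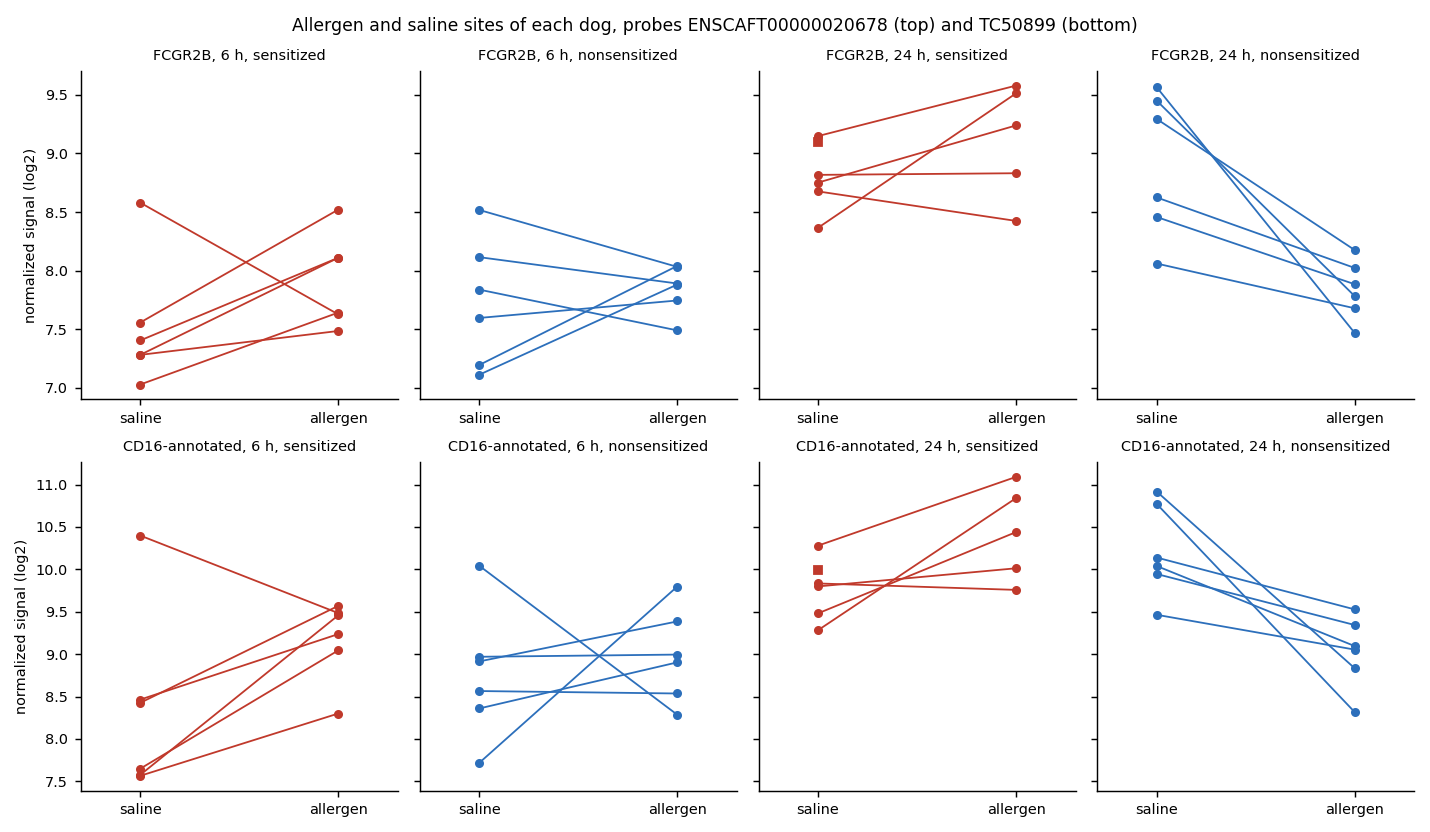
Normalized signal (log2) of FCGR2B (ENSCAFT00000020678, top) and TC50899 (bottom) at the saline and allergen sites of each dog, joined by a line, at 6 hr and 24 hr. The square is the saline site of dog 2839, whose 24 hr allergen array was left out. At 24 hr the lines fall in 6 of 6 nonsensitized dogs and rise in 4 of 5 sensitized dogs.

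Ordered by level, the FCGR2B groups fell into a high and a low set. The 24 hr allergen sites of sensitized dogs were highest (9.12 ± 0.49, SD, n = 5), followed by the nonsensitized (8.91 ± 0.61, n = 6) and the sensitized (8.81 ± 0.29, n = 6) 24 hr saline sites. After a gap of 0.89 came the remaining 7 groups, from 7.92 ± 0.40 (6 hr allergen, sensitized, n = 6) down to 7.48 ± 0.53 (0 hr, sensitized, n = 6). Within each set, neighbours in the order were closer together than the SD of at least 1 of them. For TC50899 the same 3 groups were highest, from 10.43 ± 0.56 (n = 5) to 9.78 ± 0.36 (n = 6), and the gap to the next group was 0.60. For FCGR3A the highest were 5.45 ± 0.33 (24 hr allergen, sensitized, n = 5) and 5.44 ± 0.36 (24 hr saline, nonsensitized, n = 6). They were followed by 5.03 ± 0.12 (24 hr saline, sensitized, n = 6) and 4.79 ± 0.24 (24 hr allergen, nonsensitized, n = 6). Several of these arrays were not well above background, so no gap is given. The 6 hr and 0 hr arrays were mostly not well above background.

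The FCGR2B probes agreed closely with each other. Over 59 arrays, the Pearson r of ENSCAFT00000020678 was 0.97 with ENSCAFT00000020677 and 0.99 with ENSCAFT00000038665, and after removal of the 10 group means it was 0.94 and 0.96. TC50899 followed them less closely, with r of 0.90 with ENSCAFT00000020678, and 0.76 after removal of the group means. The FCGR3A probe had r of 0.84 with TC50899 and 0.77 with FCGR2B, and 0.58 and 0.40 after removal, but most of its values were not well above background. These arrays share depth and scaling: with 75th percentile scaling the last values were 0.73 and 0.59. The correlations describe these arrays and were not tested.

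**Figure D4:**
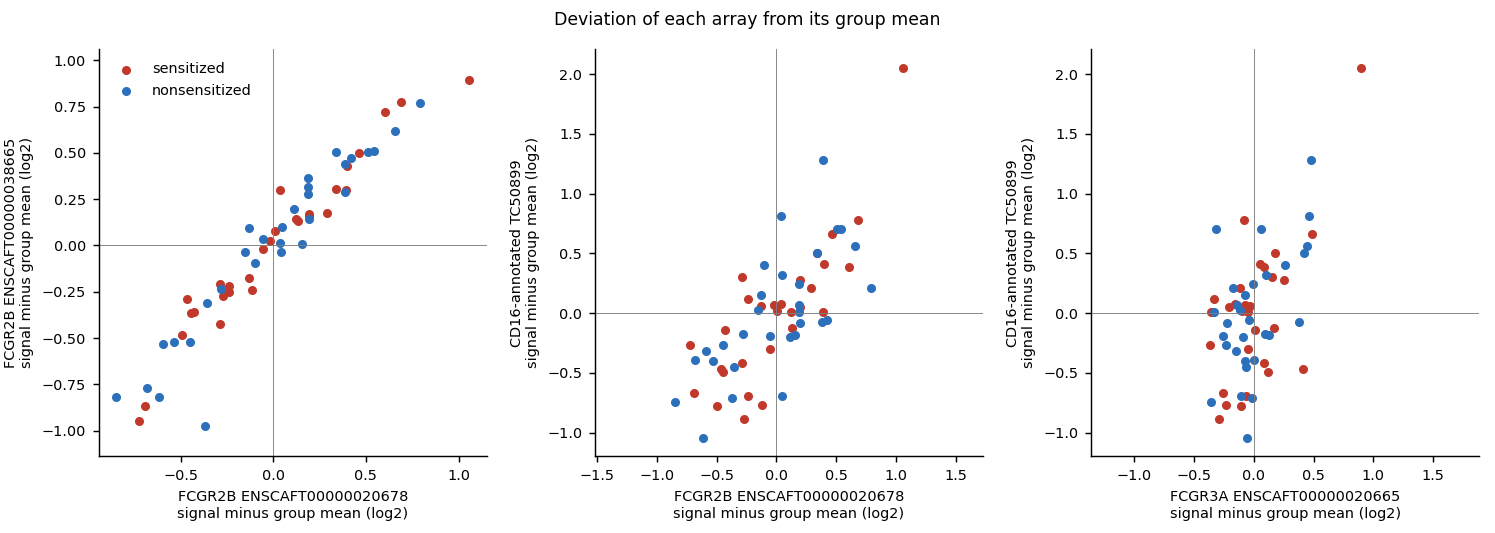
Deviation of each of 59 arrays from its group mean (log2), for a pair of FCGR2B probes (left), FCGR2B and TC50899 (middle) and FCGR3A and TC50899 (right), coloured by dog group. The FCGR2B pair lies on a narrow line (r = 0.96), and the scatter is wider for the pairs with TC50899 (r = 0.76 and 0.58). Most FCGR3A values were not well above background.

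Other genes whose deviations from the group means were most like those of FCGR2B and TC50899 were sought among 1285 named genes. Most array identifiers have no name here, and many names come from the study's list, so the set is not a sample of all genes. For FCGR2B the highest r was with MRC1 (0.77), the macrophage mannose receptor, followed by CD209 (0.73), a lectin of macrophages and dendritic cells, HCLS1 (0.73), VAV1 (0.72) and ITGB2 (0.72), the beta chain of leukocyte integrins. Without removal of the group means these r were 0.91, 0.86, 0.88, 0.85 and 0.82. For TC50899 they were CD300C (0.82), ITGB2 (0.82), CD86 (0.80), a costimulatory ligand of antigen-presenting cells, GIMAP5 (0.80), CYTH4 (0.80) and BATF (0.78), with 0.94, 0.90, 0.90, 0.90, 0.92 and 0.91 before removal. None are given for FCGR3A, most of whose values were not well above background.

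Of the 21 genes listed as Fc receptors and their subunits, 4 others could be named through RefSeq accessions and were measured: FCGR1A, the high-affinity IgG receptor, FCER1A, MS4A2 and FCER1G. All 4 were called higher at the 24 hr saline sites than in untreated skin, and all 4 at the 24 hr allergen sites, against 6.85% and 5.71% of all probes called higher. FCGR1A rose 8.08-fold at the saline sites (log2 difference 3.01, SE 0.32, limma adjusted p 5.4e-11), MS4A2 2.10-fold, FCER1A 1.65-fold and FCER1G 1.53-fold. At the allergen sites the values were 4.36-fold, 1.98-fold, 1.67-fold and 1.56-fold.

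FCGR1A, which is not on the study's list, was the only one of these 4 with a call in another comparison. It was higher at the 6 hr saline sites than in untreated skin (1.79-fold, limma adjusted p 0.039). In sensitized dogs at 6 hr it ranged from 7.29 to 10.33 at allergen sites (median 8.76) and from 6.44 to 8.65 at saline sites (median 6.97), a difference of 1.70 (SE 0.45) with an adjusted p of 0.064. In nonsensitized dogs at 24 hr its allergen sites (7.26 to 8.66, median 8.07) lay below their saline sites (8.97 to 10.39, median 9.99) without overlap. That difference was -1.79 (SE 0.45, limma adjusted p 0.024), where 0.659% of all probes were called lower. In sensitized dogs it was 0.17 (SE 0.47, adjusted p 0.98). The difference between dog groups was 1.96 (SE 0.65) with an adjusted p of 0.11 and did not pass.

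**Figure D5:**
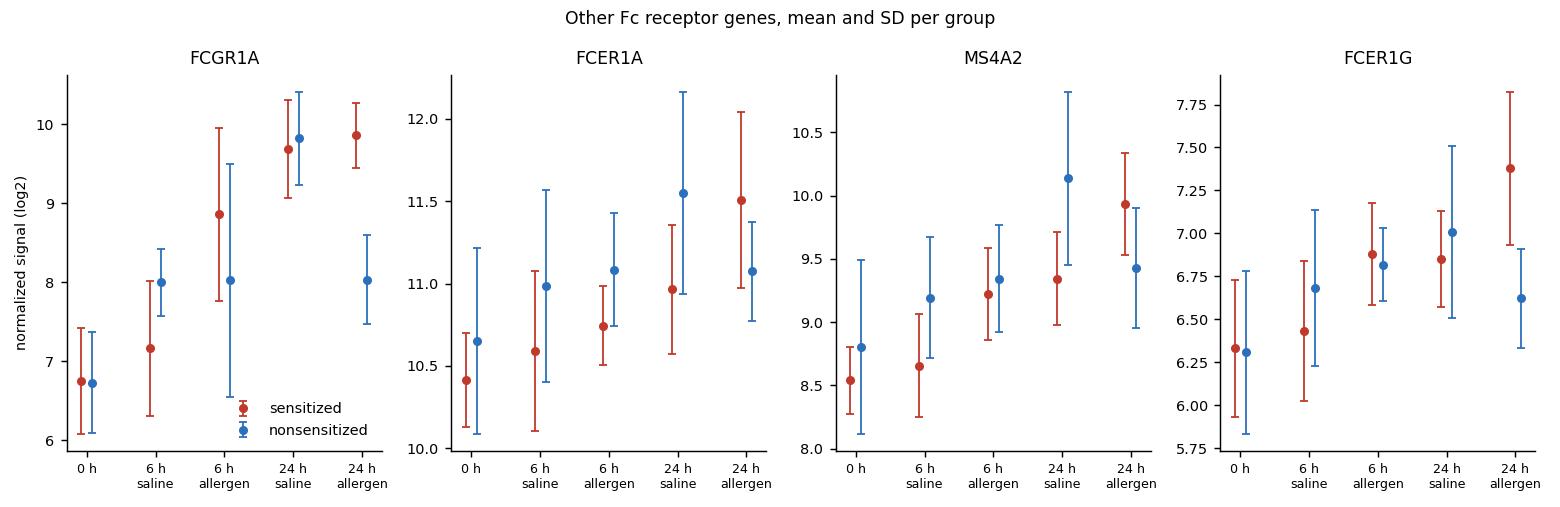
Normalized signal (log2, mean and SD, n = 5 or 6 arrays per group, each panel with its own axis) of FCGR1A, FCER1A, MS4A2 and FCER1G in the 10 groups. FCGR1A spans from 6.73 in untreated skin to 9.86 at the 24 hr allergen sites of sensitized dogs, and stands at 8.03 at those of nonsensitized dogs.

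Of 37 genes of activating signalling, 7 could be named through RefSeq and were measured. At the 24 hr saline sites 2 of 7 were called higher than in untreated skin: FCER1G and TYROBP, an adaptor with the same kind of signalling motif (1.70-fold, limma adjusted p 0.00051). At the allergen sites 3 of 7 were, with TYROBP at 1.81-fold and CYBB at 1.75-fold. Of all probes, 6.85% and 5.71% were called higher. None of the 7 was called lower, and their median difference was 0.32 and 0.24, against 0.01 over all probes in both comparisons. A pair of others, named only through the study's list, were also called higher at both sites: the kinase LYN (2.18-fold and 2.17-fold) and the exchange factor VAV1 (2.12-fold and 2.02-fold). Of 24 genes of inhibitory signalling only DOK2, an adaptor, was measured under a name. It was higher at both sites (1.94-fold and 1.80-fold), and it too was named through that list. No gene of the signalling lists was called in the comparisons at 0 hr or 6 hr, where between 0% and 2.65% of all probes were called.

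Markers of several leukocyte types moved with FCGR2B and TC50899 from 0 hr to 24 hr. Of all probes, 6.85% were called higher and 9.62% lower at the saline sites, and 5.71% and 8.81% at the allergen sites. Of 5 monocyte and macrophage markers named through RefSeq, 3 were called higher at the saline sites: CD163 (3.05-fold), CD86 (2.20-fold) and TLR2 (1.98-fold). ADGRE1 (log2 difference -0.12) and TLR4 (0.54) were not called. Their mean level ranged from 7.38 to 8.41 at 0 hr, from 8.07 to 9.29 at the 24 hr saline sites, and at the 24 hr allergen sites from 8.38 to 9.03 in sensitized and from 7.98 to 8.60 in nonsensitized dogs. Of 5 neutrophil markers 3 were called higher (S100A8, MMP9 and CEACAM1), with a mean level of 7.24 to 8.14 at 0 hr and 7.78 to 8.84 at the 24 hr saline sites. Of 4 mast cell markers 3 were called higher (MS4A2, FCER1A and CMA1), and KIT was not (log2 difference -0.44). Of 2 natural killer cell markers KLRD1 was called higher. Of 3 T cell markers CD4 was called lower and none higher at the saline sites, and at the allergen sites CD4 was called lower and CD28 higher (1.54-fold). Of 3 endothelial markers KDR and SELE were called higher and VWF lower at the saline sites, and SELE higher and VWF lower at the allergen sites. Of 3 dendritic cell markers none was called at the saline sites and CD80 was called higher at the allergen sites (1.62-fold). None of the 5 keratinocyte or 3 fibroblast markers named through RefSeq was called at either site. Of markers named only through the study's list, a list made on these arrays, KRT15 was called lower at both sites (1.71-fold and 1.69-fold) and FLG2, another keratinocyte gene, at the allergen sites (1.85-fold). CD14, MRC1 and AIF1 (monocytes and macrophages), ITGB2 (neutrophils), HDC (mast cells) and BATF3 (dendritic cells) were called higher at both sites, MS4A7 and XBP1 at the saline sites and ICOS at the allergen sites. The monocyte and macrophage, neutrophil, mast cell and natural killer cell markers called at the allergen sites through RefSeq names were those called at the saline sites. At the 24 hr allergen sites several mean levels did not overlap between the dog groups, as for FCGR2B and TC50899, a description that follows the comparison which chose the probes. In sensitized dogs they were higher for neutrophil markers (8.83 to 9.20, against 7.76 to 8.63), endothelial markers (11.36 to 11.79, against 10.36 to 11.05), T cell markers (6.13 to 6.46, against 5.67 to 6.05) and the 4 other Fc receptor genes (9.15 to 10.08, against 8.35 to 8.96). They were lower for keratinocyte markers (13.01 to 13.33, against 13.43 to 14.12). The ranges of the mast cell, natural killer cell, dendritic cell and fibroblast markers overlapped, as did those of the monocyte and macrophage markers. The share of all probes whose dog groups do not overlap here was not counted, so these ranges are a description only. The B cell marker MS4A1 did not pass the filter on dim probes. The part of these markers in the receptor values was not tested.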

How the data were processed

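Total RNA of 60 skin biopsies was turned into Cy3-labelled cRNA and hybridized to 1-colour Agilent canine arrays. The authors extracted the deposited intensity values with Agilent Feature Extraction 10.7.3.1, which subtracts background per the file headers. The values were not scaled between arrays, and the series table holds the same numbers. A pair of files lacked the header and held signals rounded to whole numbers. The number of arrays limits the precision.

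Outlier-flagged spots were set to missing. The filter on dim spots asked for 5 or more arrays of some group above background (47229 spots and 45972 probes passed). They were normalized by variance stabilization, reimplemented and tested on simulated data, and replicate spots were then averaged per probe. The 10 group means were fitted jointly to 59 arrays with limma 3.58.1 (R 4.3.3), unpaired, as in the study. The contrasts with 0 hr weight arrays equally and are orthogonal to the 24 hr difference between dog groups. A difference was called at an adjusted p below 0.05 and 1.5-fold or more.

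Arrays of 1 dog were paired by the dog number in the labels. Their deviations from the group means correlated over all probes at 0.30 to 0.73 in 12 dogs at 6 hr and at 0.06 to 0.75 in 11 dogs at 24 hr. Alternatives covered arrays, scaling, filters, outliers, slide, dog as a block, and each dog left out.

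Of the array identifiers, 1072 were named through RefSeq accessions and 510 more only through the study's list of the 24 hr comparison. FCGR2B is represented by its brightest probe. The named genes were the members, every measured Fc receptor gene, up to 4 called genes per direction of the signalling lists, and the 6 genes most like each member. A gene of the latter is not reported here, nor are those most like FCGR3A. The members and lists were chosen with earlier results of these data known. Columns of the authors' own comparisons in their list were not used. Figures were made with Python 3.11.15 and matplotlib 3.10.9.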

Additional observations from a re-analysis of the deposited data

Results flagged for a closer look

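Outliers were marked by the gap to the next array as a share of the range of the group. The 6 hr saline array of sensitized dog 2855 was marked for 4 of the 5 probes, at 5.41 for FCGR3A, 8.58 for FCGR2B (ENSCAFT00000020678), 7.76 for FCGR2B (ENSCAFT00000020677) and 10.40 for TC50899. For ENSCAFT00000038665 it was also the highest of its group, at 8.37, but was not marked. The 6 hr saline array of nonsensitized dog 2800 was high for FCGR3A (4.92), and its 24 hr allergen array was low for FCGR2B probe ENSCAFT00000038665 (6.73). Chance marks about 1 group in 20 when groups are independent, which these are not: the probes share arrays and move together, and 4 of the 6 values come from the array of dog 2855.

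The allergen effect on FCGR3A at 24 hr was positive in 5 of 5 sensitized dogs and negative in 6 of 6 nonsensitized dogs. The means of the dogs differed by 1.04 (log2). This is no measured size, since 4 of 6 allergen and 2 of 6 saline arrays of the nonsensitized dogs were not well above background. The fitted size ranged from 0.47 to 2.17 over the scalings. The probe was listed by the study for this difference, which was therefore not tested here.

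The left-out 24 hr allergen array of dog 2839, scaled together with the other 59 arrays, was above all 24 hr saline arrays of sensitized dogs for 4 of the 5 probes. It gave 11.72 for TC50899 (highest saline array 10.27), 5.98 for FCGR3A (5.12), 9.36 for FCGR2B probe ENSCAFT00000020678 (9.14) and 9.36 for ENSCAFT00000038665 (9.05). For ENSCAFT00000020677 it was at 8.09, below the highest saline array (8.26).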

How the results depend on the processing

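Of 741 values of FCGR3A, FCGR2B, TC50899 and their agreement under alternatives, 692 were counted as unchanged. For the fitted comparisons with a call this means the same direction and call. For the described 24 hr differences it means a shift smaller than the SD within groups, and for correlations a shift within a set limit. The count includes FCGR3A, whose values are not tests. Dog as a replicate block changed no call (FCGR2B at the 24 hr saline sites minus 0 hr, 1.36). With slide as a block, the differences from 0 hr of FCGR2B and TC50899 were not called at the 24 hr saline sites (0.53 and 0.95) or allergen sites (0.15 and 0.69), where ENSCAFT00000020677 gave -0.14 and ENSCAFT00000038665 -0.038.

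Small differences that were not called changed sign. At 0 hr, FCGR2B gave 0.051 with 60 weighted arrays, 0.078 without scaling and 0.00 with slide as a block, and ENSCAFT00000038665 gave 0.012 and 0.043 with weights and without scaling. For allergen minus saline in nonsensitized dogs at 6 hr, with slide as a block FCGR2B gave -0.24, ENSCAFT00000020677 -0.11, ENSCAFT00000038665 -0.12 and TC50899 -0.16. For the 6 hr saline sites minus 0 hr, ENSCAFT00000020677 gave -0.06 (75th percentile) and -0.022 (without scaling).

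With each dog left out in turn, no call changed. The sign changed in FCGR2B at 0 hr (-0.17 to 0.11) and at 6 hr in nonsensitized dogs (-0.028 to 0.238), in TC50899 at 6 hr in nonsensitized dogs (-0.15 to 0.62), in ENSCAFT00000038665 at 0 hr (-0.22 to 0.12) and in ENSCAFT00000020677 at the 6 hr saline sites minus 0 hr (-0.093 to 0.108). The causes were not tested.

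Signal over background limits FCGR3A: the lowest level called well above background lay between 4.24 and 5.24 on the arrays, and the probe was not well above background on most arrays. The planned fits gave the following values for FCGR3A, at every time neither measured sizes nor tests, which show only how far it moved with the processing. From 0 hr to the 24 hr saline and allergen sites it gave 0.94 and 0.83 with slide as a block and 0.38 and 0.30 with normexp, and to the 6 hr saline sites 0.52 without a limit on the fold. Between dog groups at 0 hr it gave -0.042 (weights), -0.001 (normexp), -0.044 (slide) and -0.068 to 0.089 with each dog left out. For allergen minus saline at 6 hr it gave -0.001 to 0.25 in sensitized dogs with each dog left out, and in nonsensitized dogs -0.131 to 0.089, 0.44 (75th percentile), 0.38 (without scaling), 0.012 (normexp), 0.215 (no filter on dim probes), 0.053 (slide) and 0.004 (random slide). At 24 hr it gave 2.09 (75th percentile), 2.17 (without scaling), 0.47 (normexp) and 1.78 (no filter) between dog groups, in the same order -1.35, -1.45, -0.30 and -1.15 for allergen minus saline in nonsensitized dogs, and 0.73 and 0.72 in sensitized dogs with the first 2 settings. Its r with TC50899 after removal of group means was 0.73 with the 75th percentile.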
